A study of Homo sapiens with 6 samples.

Results

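MALAT1 and NEAT1 are long noncoding RNAs that stay in the nucleus and lie next to each other on chromosome 11. They were 2 of the 24462 gene symbols counted in 6 RNA sequencing libraries of MDA-MB-231, a human triple negative breast cancer cell line of mesenchymal character. MALAT1 was chosen by its measured counts, since it held the highest count of every library and its share differed between the groups, so its values are given as a description without a test. NEAT1 was taken as the neighbour of MALAT1 and was tested, although earlier results of these data were known when it was chosen. Both were matched by gene symbol, and each stood on 1 line of every count file.

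MDA-MB-231 cells were harvested 48 h after transient transfection with a lipid reagent, with 2 libraries in each of 3 groups. The first group received an NC (negative control) mimic. The second received miR-200a at 100 nM, and the third received miR-200a at 100 nM together with 30 ng of a plasmid carrying ELK3, an ETS family transcription factor. No group of the series received the ELK3 plasmid without miR-200a, and the labels name no empty plasmid for the first 2 groups, so an action of ELK3 and an action of transfected plasmid DNA cannot be told apart. The sources do not say whether the 2 libraries of a group came from separate cultures, so each p measures the spread between these libraries, which may be technical.

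Library totals ran from 3055915 to 4868004 counts. The mesenchymal markers VIM, CD44, CAV1, AXL, MSN and LGALS1 were present in every library. ESR1, the estrogen receptor, was at 0 counts in all 6, which allows up to 0.982 CPM (counts scaled to a fixed library size) in the shallowest library. Other markers of luminal, blood or vessel cells were not all absent. CD68 held 57 to 144 counts, GATA3 14 to 42 and ERBB3 7 to 27, at most 30.2, 8.80 and 5.66 CPM. PGR, TFF1, CLDN3, PTPRC, CD3E and PECAM1 held at most 13 counts in any library. ELK3 itself went against the label of the third group. Its normalized level was 137 and 166 CPM with NC mimic, 102 and 103 CPM with miR-200a, and 95.9 and 79.0 CPM in the third group, although its cells were given ELK3. ELK3 there differed from NC mimic by -0.79 on the log2 scale (SE 0.15, adjusted p = 0.0116, edgeR), and from miR-200a by -0.23 (SE 0.15, adjusted p = 0.353). The plasmid holds the coding region of ELK3 without its own 3′ end, so reads from the 3′ end of transcripts need not record it, and this check is weak. By qRT-PCR and Western blot the authors report ELK3 mRNA and protein back at the control level in co-transfected MDA-MB-231 cells. Whether those were the sequenced cells is not stated. The third group is called the libraries labelled ELK3, after the miR-200a-plus-ELK3 of their titles. Its 2 libraries also differed more from each other than those of the other groups, with a chi-square per degree of freedom over genes of 14.1 against 2.46 for NC mimic and 1.90 for miR-200a. Every comparison with the third group rests on these 2 libraries.

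MALAT1 is known as a component of nuclear speckles, the bodies in which splicing factors gather, and it is among the most abundant noncoding RNAs of cultured cells. NEAT1 is the scaffold of paraspeckles, which do not form without its long isoform. MALAT1 and the long NEAT1 isoform are not ended by cleavage and polyadenylation. RNase P cuts each of them ahead of a small tRNA-like RNA, and the new end is closed by a triple helix in place of a poly(A) tail, whereas the short NEAT1 isoform ends in a poly(A) tail.

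In the GRCh38 assembly with GENCODE 29 annotation, NEAT1 (ENSG00000245532.8) spans chr11:65422774-65445540 on the forward strand, a span of 22767 bases. MALAT1 (ENSG00000251562.8) spans chr11:65497688-65506516 on the same strand, a span of 8829 bases, and 52147 bases separate the end of NEAT1 from the start of MALAT1. Both are annotated as long intergenic noncoding RNAs, so the stretches printed below are transcribed but not coding. The count files carry no coordinates, and these positions come from the reference annotation.

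The agent shared by both miR-200a groups is shown first, because it sets the letters that were searched in both RNAs. The mature sequence comes from RefSeq (GRCh38.p14, chr1:1167916-1167937, forward strand), with its seed, bases 2 to 8, in capitals.
hsa-miR-200a-3p: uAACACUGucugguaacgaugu

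The reverse complement of this seed, CAGTGTT, and the longer form with an A opposite the first base, CAGTGTTA, were searched on the sense strand of the annotated transcripts. The annotated MALAT1 transcript of 8708 bases held CAGTGTT at 2 places, at transcript positions 2700 and 5923, and the longer form at none. Of 1595 genes whose longest transcript was within 20% of this length, 26.0% held CAGTGTT at least 2 times. The long NEAT1 transcript of 22743 bases held 1 match, of the longer form, at position 11530, and the longer form was found in 35.5% of 62 genes of like length. The short NEAT1 transcript of 3441 bases held no match, and 27.6% of 5810 genes of like length held at least 1. The matches are printed with the matching letters in capitals, at chr11:65500451-65500477 and chr11:65503674-65503700 for MALAT1 and at chr11:65434317-65434344 for NEAT1 (GRCh38, forward strand).
MALAT1 match at 2700: ttccaggaacCAGTGTTtgatgaagct
MALAT1 match at 5923: gtctgtagttCAGTGTTggggcaatct
NEAT1 match at 11530: gaggggtaacCAGTGTTAccagtttgct

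A letter match describes the sequence and is not a binding site. The binding of the mimic to either RNA was not measured here.

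The libraries were made with a QuantSeq kit, in which oligo-dT starts the copy of the RNA and the reads come from close to that start. An RNA without a poly(A) tail can be primed within the transcript at a run of A, so the runs of at least 10 A are also shown. This MALAT1 transcript held 1 such run, of 13 A, which lay 359 bases before its annotated end. The place of the RNase P cut was not located here, so distances to the ends of the mature RNAs are not given. Long NEAT1 held 5, of 10 to 22 A, and the longest lay 4676 bases before its end, while short NEAT1 held none. An A run of this length was found in 48.1% of the genes of like length for MALAT1, in 69.4% for long NEAT1 and in 18.8% for short NEAT1. The runs, in capitals, lie within chr11:65506090-65506118 and chr11:65440839-65440868 (GRCh38, forward strand).
MALAT1 run of 13 A: tctagcttAAAAAAAAAAAAAgcaaaaga
NEAT1 run of 22 A: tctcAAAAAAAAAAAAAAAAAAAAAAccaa

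The files give 1 count for each gene, so the priming position and the NEAT1 isoform behind a read cannot be told. Whether the counts used strand is not given in the sources used here, and reads from TALAM1, the RNA transcribed antisense to MALAT1, cannot be told apart from MALAT1 reads.

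MALAT1 was the gene with the highest count in all 6 libraries. It held 67702 and 46610 counts with NC mimic, 91878 and 93802 with miR-200a, then 41654 and 35628 in the libraries labelled ELK3. As a share of the library this was 1.49% (95% Wilson interval 1.480 to 1.502) and 1.53% (1.51 to 1.54) with NC mimic. With miR-200a it was 1.93% in both libraries (1.91 to 1.94 in each). In the libraries labelled ELK3 it was 0.985% (0.976 to 0.994) and 0.819% (0.811 to 0.828). The miR-200a libraries were highest, the libraries labelled ELK3 were lowest, and no 2 groups overlapped. MALAT1 was chosen because its share differed between the groups, so this order is only a description. In normalized levels, 478 of the 12650 genes tested, or 3.78%, held the same order without overlap. In RNA from whole cultures, less RNA per cell and fewer cells with much of it cannot be told apart. The intervals cover counting error only, since reads without molecular identifiers are not independent molecules.

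**Figure D1:**
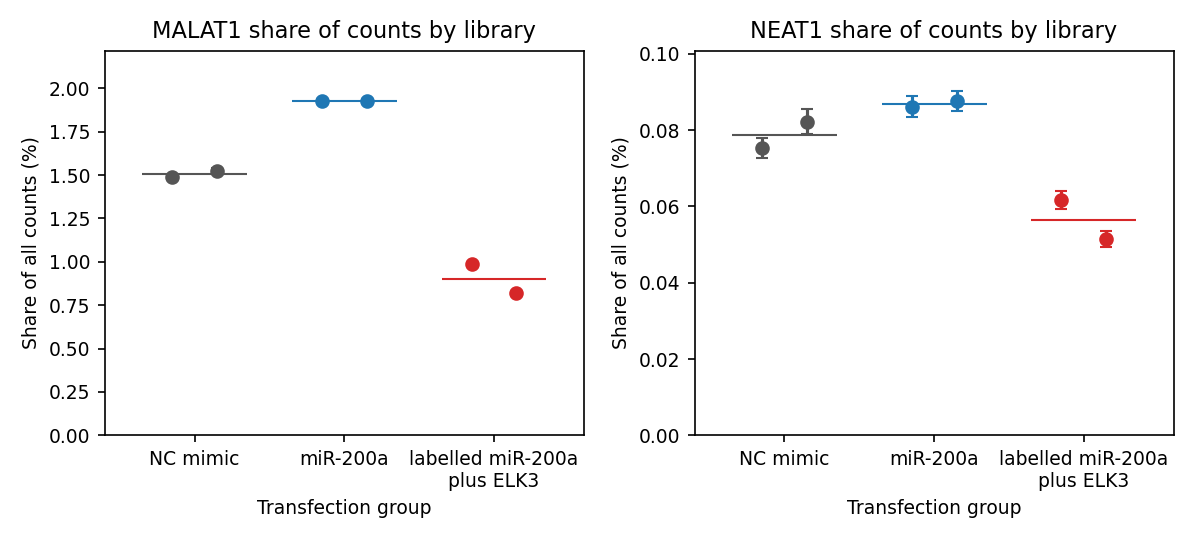
Share of all counts in percent held by MALAT1 (left) and NEAT1 (right) in each of the 6 libraries. Points are single libraries with 95% Wilson intervals, which are smaller than the points for MALAT1, and lines are group means. Both RNAs were highest with miR-200a and lowest in the libraries labelled ELK3, at 0.902% for MALAT1 and 0.0565% for NEAT1 on average.

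The lead of MALAT1 over the next gene moved with its share. It held 1.97 and 2.34 times the count of the next gene with NC mimic, 2.45 and 2.57 times with miR-200a, then 1.4999 and 1.17 times in the libraries labelled ELK3. The next gene was IER3, an immediate early response gene, or TUBB, a beta tubulin. TUBB kept to between 0.644% and 0.702% of the counts over the 6 libraries, and IER3 ran from 0.391% to 0.784%. Such counts rank reads and not molecules, because no value was scaled by length.

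After scaling by the trimmed mean of M values (TMM), MALAT1 stood at 15041 and 15173 CPM with NC mimic, 19031 and 19068 CPM with miR-200a, then 9840 and 8353 CPM in the libraries labelled ELK3. The level with miR-200a was 1.26 times that with NC mimic (log2 difference 0.33, SE 0.10). The level in the libraries labelled ELK3 was 2.09 times lower than with miR-200a (log2 difference -1.07, SE 0.10) and 1.66 times lower than with NC mimic (-0.73, SE 0.10). Among all 12650 genes tested, 14.3% had a higher log2 difference than MALAT1 between miR-200a and NC mimic. Of all genes 5.00% had a lower one between the libraries labelled ELK3 and miR-200a, and 10.7% between those libraries and NC mimic. The 2 miR-200a libraries differed by 0.0028 on the log2 scale in MALAT1, those with NC mimic by 0.0125, and those labelled miR-200a plus ELK3 by 0.236. The last value lay between the median difference of all genes between the same libraries, 0.325, and that of the most abundant 1% of genes, 0.217. MALAT1 took part in choosing the genes described here through these very differences, so they carry no p.

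The size of the MALAT1 difference depends on how libraries are scaled, and one scaling removes it. With quantile normalization, which gives the highest gene of every library the same value by construction, the log2 difference was 0 in all 3 comparisons. Under the other scalings, with library totals alone, and with MALAT1 and NEAT1 left out of the scaling factors, the sign was the same as with TMM.

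NEAT1 held 3417 and 2510 counts with NC mimic, 4111 and 4267 with miR-200a, then 2606 and 2236 in the libraries labelled ELK3. Its share was 0.0753% and 0.0821%, 0.0861% and 0.0877%, and 0.0616% and 0.0514% in the same order. Its rank among all genes ran from 124 with miR-200a to 268 in a library labelled ELK3. The order of the groups was that of MALAT1, again without overlap. Such an order, with miR-200a highest and no overlap, was held by 478 of the 12650 genes, or 3.78%.

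Between miR-200a and NC mimic, NEAT1 was not called. The levels were 759 and 817 CPM with NC mimic against 852 and 867 CPM with miR-200a, a log2 difference of 0.13 (SE 0.12, adjusted p = 0.818, edgeR quasi-likelihood test with Benjamini-Hochberg adjustment over 12650 genes). In this comparison 0.269% of all genes passed the threshold of an adjusted p under 0.05, 27 higher (0.213%) and 7 lower (0.0553%) with miR-200a. The groups of 22.9% of all genes lay apart with miR-200a higher, as those of NEAT1 did. In this fit the spread is estimated over all 3 groups, and the difference of 0.13 stood beside an SE of 0.12. With the 2 compared groups alone it was 0.14 (SE 0.058, unadjusted p = 0.0191, adjusted p = 0.142, edgeR). There, 2571 of 12460 genes had an unadjusted p under 0.05. NEAT1 was called between these groups under none of the alternatives.

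NEAT1 fell in the libraries labelled ELK3. Its level there was 616 and 524 CPM, 1.51 times lower than with miR-200a (log2 difference -0.59, SE 0.12, adjusted p = 0.0137, edgeR) and 1.38 times lower than with NC mimic (-0.47, SE 0.12, adjusted p = 0.0306, edgeR). In the comparison with miR-200a 12.9% of all genes were called, of which 748 were lower, or 5.91% of the genes tested. In the comparison with NC mimic 12.9% were called, of which 753 were lower, or 5.95%. Groups apart with the libraries labelled ELK3 lower were found for 28.0% of all genes against miR-200a and for 27.6% against NC mimic. These comparisons share their labelled libraries and are not independent.

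Both calls of NEAT1 were lost under some of the alternative fits, and the cause was not tested. The call against miR-200a was lost without the first or the second miR-200a library (adjusted p = 0.157 and 0.179), with a fit of the 2 compared groups alone (adjusted p = 0.0503, edgeR), and with limma on quantile-normalized values (0.0996). The call against NC mimic was lost without either NC mimic library (adjusted p = 0.148 and 0.238), without either miR-200a library (0.105 and 0.106), with a fit of the 2 groups alone (0.0994, edgeR), with limma (0.138), and with the replicate number as a block (0.0590, edgeR). A fit without the first or the second library labelled ELK3 leaves 1 library in that group. The spread between these libraries is then not part of the fit, so it cannot show whether the calls withstand that spread. The log2 differences lay between -0.72 and -0.37 over all the fits that left out 1 library.

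**Figure D2:**
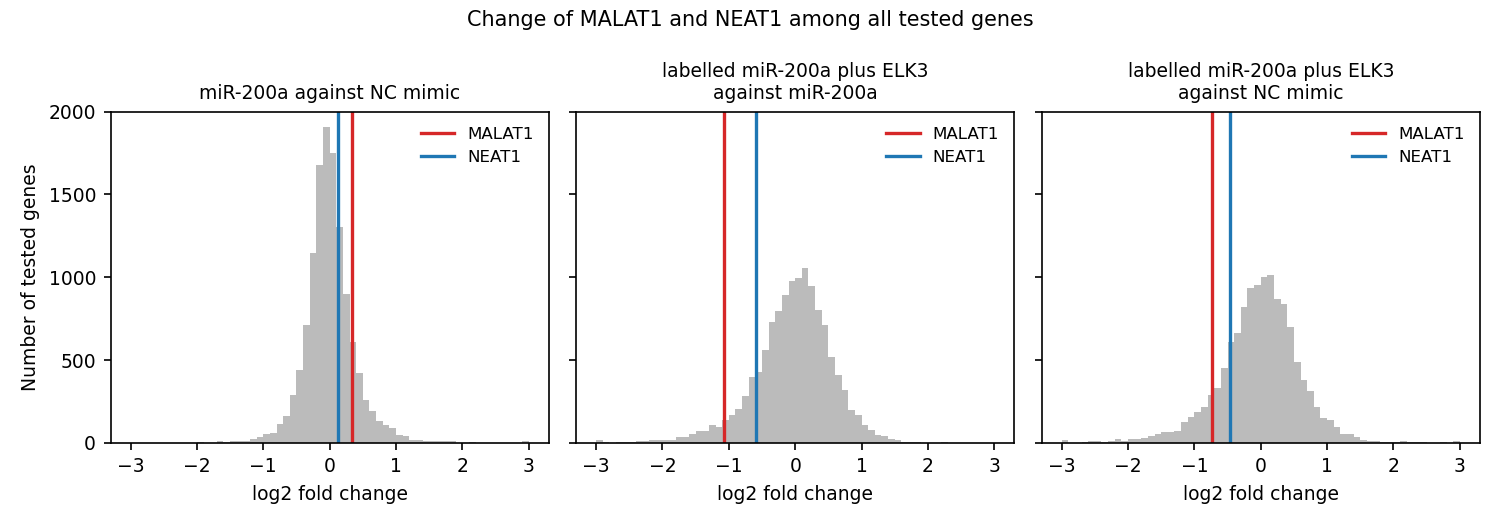
Histograms of the log2 fold changes of the 12650 tested genes in the 3 comparisons, in steps of 0.1, with MALAT1 (red line) and NEAT1 (blue line). MALAT1 lies at 0.33, -1.07 and -0.73 and NEAT1 at 0.13, -0.59 and -0.47, so that both sit on the same side in each comparison with MALAT1 further out.

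The number of MALAT1 counts for each NEAT1 count differed between the groups. There were 19.8 and 18.6 MALAT1 counts for each NEAT1 count with NC mimic, 22.3 and 22.0 with miR-200a, then 15.98 and 15.93 in the libraries labelled ELK3. The means were 19.2 ± 0.879, 22.2 ± 0.259 and 15.96 ± 0.0354 (SD, n = 2). This ratio is taken within a library and needs no scaling, and no 2 groups overlapped in it. How often the ratio of 2 other genes lay apart in this way was not counted. On the log2 scale the ratio differed by 0.21 between miR-200a and NC mimic, by -0.47 between the libraries labelled ELK3 and miR-200a, and by -0.27 between those libraries and NC mimic. It holds MALAT1, so it was not tested.

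**Figure D3:**
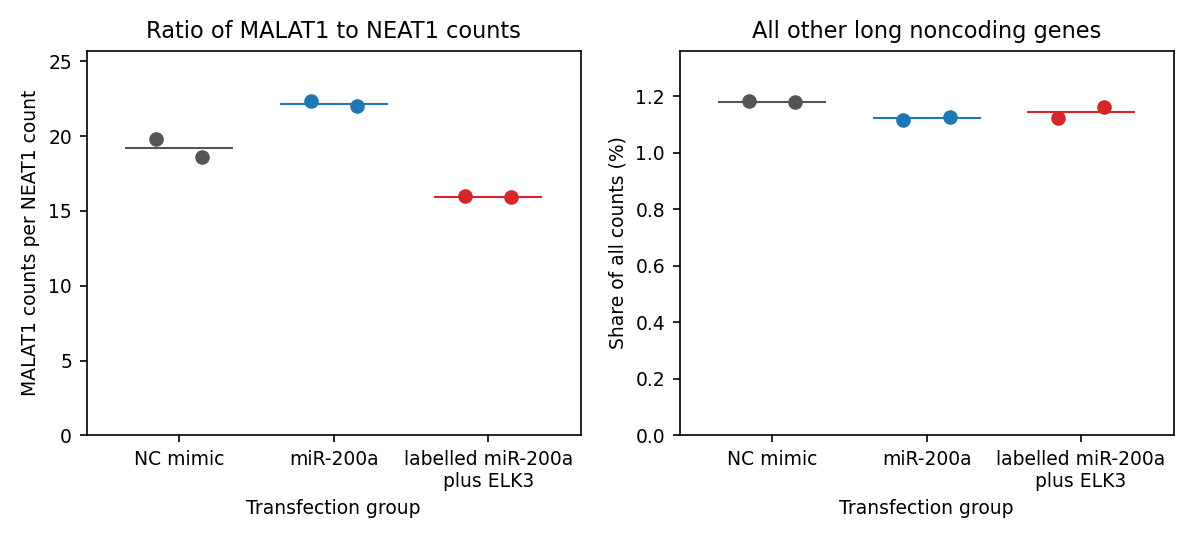
MALAT1 counts per NEAT1 count (left) and the share of all counts in percent held by all long noncoding genes other than MALAT1 and NEAT1 (right), for each of the 6 libraries, with group means as lines. The ratio runs from 15.93 to 22.3 with the groups apart, and the share of the other long noncoding genes lies between 1.12% and 1.18% in every library.

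The summed share of the other long noncoding genes was alike in all libraries. Of the listed symbols, 2162 had a long noncoding gene type in GENCODE 29. Together they held 2.75% and 2.79% of the counts with NC mimic, 3.13% and 3.14% with miR-200a, then 2.17% and 2.03% in the libraries labelled ELK3. MALAT1 made up 54.2% and 54.7% of these, then 61.6% and 61.3%, and then 45.4% and 40.3%. NEAT1 made up between 2.53% and 2.95% and stood between the third and the sixth place among them. Without MALAT1 and NEAT1 the share was 1.12% to 1.18% in every library. Of the 370 others that were tested, 11 rose and 18 fell against miR-200a and 13 rose and 19 fell against NC mimic, which is 7.84% and 8.65% of them beside 12.9% of all genes. Against miR-200a, 28 of the 370 had a lower log2 difference than MALAT1 and 67 a lower one than NEAT1.

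Among 26 long noncoding RNAs chosen because they are often found in the nucleus, 16 were tested. In the libraries labelled ELK3, 0 rose and 2 fell against miR-200a, and 0 rose and 2 fell against NC mimic. This is 12.5% in each, near the 12.9% of all genes, with medians of -0.13 and -0.16 beside 0.02 and 0.01 over all genes. At an unadjusted p under 0.05 there were 5 and 6, beside 30.6% of all genes in each comparison. LINC00657, also called NORAD, a cytoplasmic and nuclear RNA that binds Pumilio proteins, fell in both comparisons. It stood at 376 and 398 CPM with NC mimic, 357 and 373 CPM with miR-200a, then 270 and 199.99 CPM in the libraries labelled ELK3 (log2 differences -0.63 and -0.72, adjusted p = 0.0230 and 0.0144, edgeR). LINC01578 fell against miR-200a (-0.73, adjusted p = 0.0289, edgeR) and LINC-PINT against NC mimic (-0.95, adjusted p = 0.0300, edgeR).

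The genes of the proteins that meet these RNAs were then counted. Paraspeckle proteins bind NEAT1 or gather in the bodies it scaffolds. Of 40 such genes, all tested, 9 rose and 1 fell in the libraries labelled ELK3 against miR-200a, which is 25% beside 12.9% of all genes (7.03% higher), and the median log2 difference was 0.25 beside 0.02. Against NC mimic 7 rose and 0 fell, 17.5% beside 12.9% of all genes (6.92% higher), with a median of 0.20 beside 0.01. Between miR-200a and NC mimic 0 of the 40 were called with edgeR over the 3 groups, DESeq2 or limma, and 1 had an unadjusted p under 0.05 with edgeR, as 9.24% of all genes did. With edgeR on the 2 compared groups alone 3 were called, when 983 of 12460 genes were. SFPQ, a paraspeckle core protein that binds NEAT1 and is needed for its long isoform, stood at 177 CPM in both NC mimic libraries, at 211 and 213 CPM with miR-200a, and at 418 and 425 CPM in the libraries labelled ELK3. It rose by 0.99 against miR-200a (SE 0.11, adjusted p = 0.00160, edgeR) and by 1.25 against NC mimic (SE 0.12, adjusted p = 0.000300, edgeR).

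RBM14, which is needed for paraspeckles to form, rose by 1.07 against miR-200a and by 0.92 against NC mimic (adjusted p = 0.0181 and 0.0324, edgeR). FAM98A rose by 0.97 and 1.13 (adjusted p = 0.0143 and 0.00812, edgeR), and DAZAP1, an RNA-binding protein, by 0.56 and 0.81 (adjusted p = 0.0194 and 0.00470, edgeR). RBMX, an RNA-binding protein with several near-identical copies in the genome that may share its reads, rose by 1.04 and 1.06 (adjusted p = 0.0109 and 0.00946, edgeR). ZC3H6 was the member that fell, by 1.16 against miR-200a (adjusted p = 0.0250, edgeR). NONO, the partner of SFPQ in the paraspeckle core, differed by 0.20 and 0.01 and was not called (adjusted p = 0.330 and 0.976, edgeR). HNRNPK, the member with the highest mean level, differed by 0.14 and 0.13 and was not called (adjusted p = 0.426 and 0.460, edgeR).

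Of 37 genes of nuclear speckle proteins, the bodies where MALAT1 resides, 8 rose and 2 fell against miR-200a, 27.0%, and 3 rose and 3 fell against NC mimic, 16.2%, beside 12.9% of all genes in each comparison. The medians were 0.17 and 0.08 beside 0.02 and 0.01 over all genes. Between miR-200a and NC mimic 0 were called with edgeR over the 3 groups, DESeq2 or limma, 3 had an unadjusted p under 0.05 with edgeR, and 4 were called with edgeR on the 2 compared groups alone. The splicing factor RBM25 rose by 0.76 and 0.64 (adjusted p = 0.00470 and 0.00816, edgeR), from 331 and 352 CPM with miR-200a to 549 and 605 CPM in the libraries labelled ELK3. BCLAF1 rose by 0.61 and 0.70 and PNN, pinin, by 0.52 and 0.53. CLK1 and CLK4, kinases that phosphorylate SR splicing factors, both fell. CLK4 differed by -1.29 and -1.36 (adjusted p = 0.0220 and 0.0191, edgeR) and CLK1 by -0.56 and -0.89 (adjusted p = 0.0491 and 0.00957, edgeR).

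The third list held subunits of RNase P, which cuts the end of MALAT1 and of long NEAT1, with RNase Z, which frees the tRNA-like RNA, and other factors of 3′ end processing or decay. Of 27 genes 26 were tested. In the libraries labelled ELK3, 6 rose and 0 fell against miR-200a and likewise 6 and 0 against NC mimic, 23.1% in each beside 12.9% of all genes (7.03% and 6.92% higher). The medians were 0.35 and 0.27 beside 0.02 and 0.01 over all genes. Between miR-200a and NC mimic 0 were called with edgeR over the 3 groups, DESeq2 or limma, 1 had an unadjusted p under 0.05 with edgeR, and 1 was called with edgeR on the 2 compared groups alone. POP1, the largest protein subunit of RNase P, stood at 24.4 and 29.9 CPM with NC mimic, 22.6 and 24.8 CPM with miR-200a, then 55.0 and 67.3 CPM in the libraries labelled ELK3. It rose by 1.37 and 1.18 (adjusted p = 0.00348 and 0.00568, edgeR). POP7 rose by 0.87 in both comparisons (adjusted p = 0.00761 and 0.00688, edgeR), and POP5 by 1.10 and 1.18 (adjusted p = 0.0234 and 0.0210, edgeR). ELAC2, which encodes RNase Z, rose by 1.01 and 0.71 (adjusted p = 0.0104 and 0.0354, edgeR). RPPH1, the RNA of RNase P, was counted in a further list given below and did not rise. It differed by -0.20 and -0.83 and was not called (adjusted p = 0.682 and 0.0816, edgeR).

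**Figure D4:**
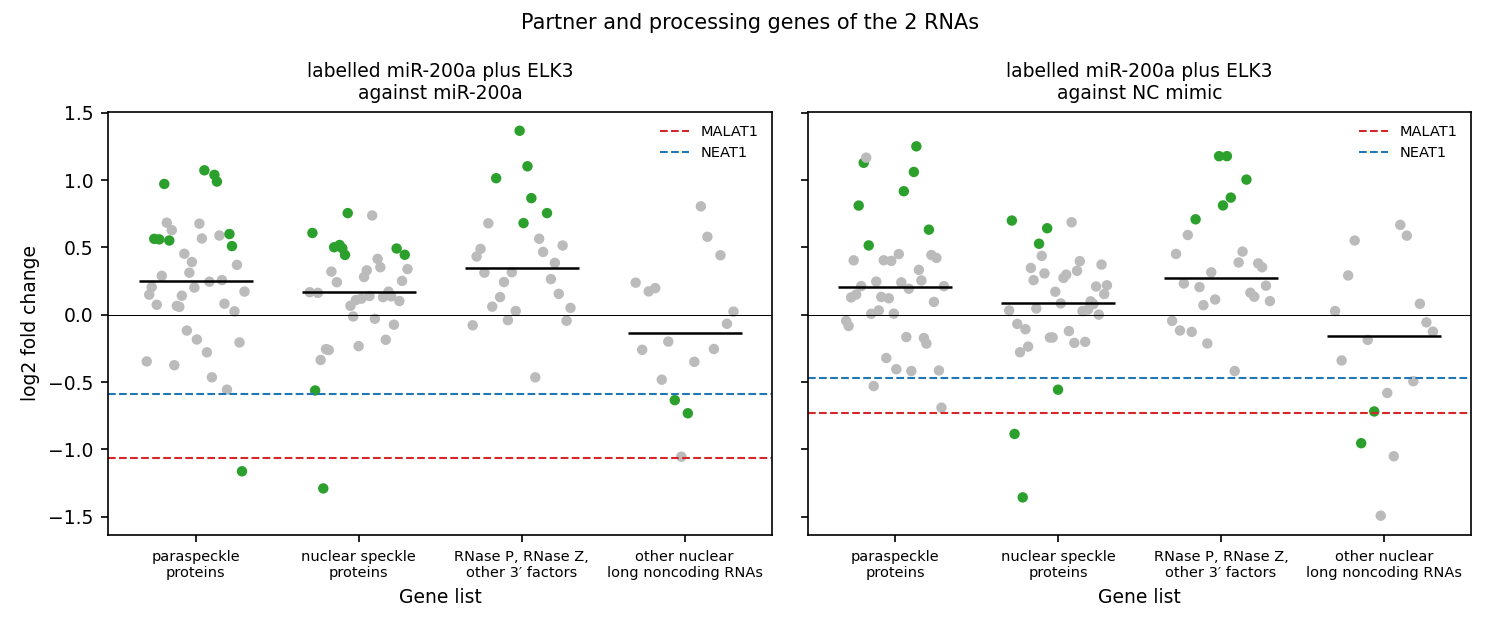
Log2 fold change of each tested gene of 4 lists in the libraries labelled ELK3, against miR-200a (left) and against NC mimic (right). Green points have an adjusted p under 0.05, grey points do not, black bars are list medians, and dashed lines mark MALAT1 and NEAT1. The medians of the 3 protein lists lie above 0, from 0.08 to 0.35, and those of the other nuclear long noncoding RNAs below it, at -0.13 and -0.16.

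The list counts move with single libraries as the NEAT1 calls do. Against miR-200a, 0 genes of any of these lists were called by edgeR without the first or without the second miR-200a library, when 49 and 31 of all genes were called and 2214 and 2188 had an unadjusted p under 0.05. Against NC mimic, 1 paraspeckle gene and no gene of the other 2 protein lists was called without the first or without the second NC mimic library. DESeq2 called 7 paraspeckle, 6 nuclear speckle and 4 RNase P or 3′ factor genes against miR-200a, and limma 0 of each. Without the first library labelled ELK3, the comparison with miR-200a called 4684 of 13119 genes, among them 24 paraspeckle, 18 nuclear speckle and 15 RNase P or 3′ factor genes. Without the second it called 2892 of 13102 genes, among them 16, 19 and 7. The comparison with NC mimic called 4675 genes without the first, among them 20, 17 and 12 of the lists, and 2926 without the second, among them 17, 17 and 7.

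A further list held replication-dependent histone and small structured RNAs, chosen as RNAs that commonly lack a poly(A) tail, and 14 of 21 were tested. Oligo-dT starts the copy in these libraries, so whether their reads came from forms with or without a tail cannot be told. Against miR-200a 1 rose and 1 fell, 14.3%, and against NC mimic 1 rose and 2 fell, 21.4%, beside 12.9% of all genes in each comparison. HIST1H4C, a histone H4 gene, rose by 0.80 against miR-200a (adjusted p = 0.0126, edgeR), and HIST2H2BE fell by 1.08 and 1.09 (adjusted p = 0.0462 and 0.0483, edgeR). RMRP, the RNA of RNase MRP, rose by 1.73 against NC mimic (adjusted p = 0.0321, edgeR). HIST1H2BK fell by 0.86 against NC mimic (adjusted p = 0.00697, edgeR). The called genes of this list went in both directions, which cannot be read as the behaviour of RNAs without a tail.

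In the fit of all 6 libraries, no tested gene around MALAT1 and NEAT1 was called lower in the libraries labelled ELK3. Within 500 kb on either side 54 other annotated genes had a symbol in the files, and 46 were tested. There, 3 rose and 0 fell against each of the other groups, 6.52% beside 12.9% of all genes, and the medians were 0.14 and 0.19. FRMD8, the coding gene on the NEAT1 side, which encodes a partner of iRhom proteins, stood at 47.5 and 49.2 CPM with NC mimic, 70.4 and 64.4 CPM with miR-200a, then 99.2 and 124 CPM in the libraries labelled ELK3. It rose by 0.73 and 1.21 (adjusted p = 0.0172 and 0.00231, edgeR). AP5B1, a subunit of an adaptor protein complex, rose by 1.06 and 1.64 (adjusted p = 0.0287 and 0.00697, edgeR), and SAC3D1 by 0.89 and 1.23 (adjusted p = 0.0388 and 0.0140, edgeR). LTBP3, which encodes a protein that binds latent TGF-beta, differed by -0.12 and -0.11 and was not called (adjusted p = 0.663 and 0.700, edgeR). Some uncalled neighbours were lower by more. DPF2 differed by -0.62 and -1.02 (adjusted p = 0.283 and 0.0910, edgeR), and CTSW, at a low level, by -1.63 and -1.62 (0.125 and 0.132, edgeR). The counts that follow take both directions together. Against miR-200a, DESeq2 called 3 of the 46, limma on quantile-normalized values 0, and edgeR on the 2 compared groups alone 0 of 45. Against NC mimic, DESeq2 called 3 of the 46, limma 1, and edgeR on the 2 compared groups alone 3 of 44. In both comparisons the counts also changed when 1 library was left out.

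**Figure D5:**
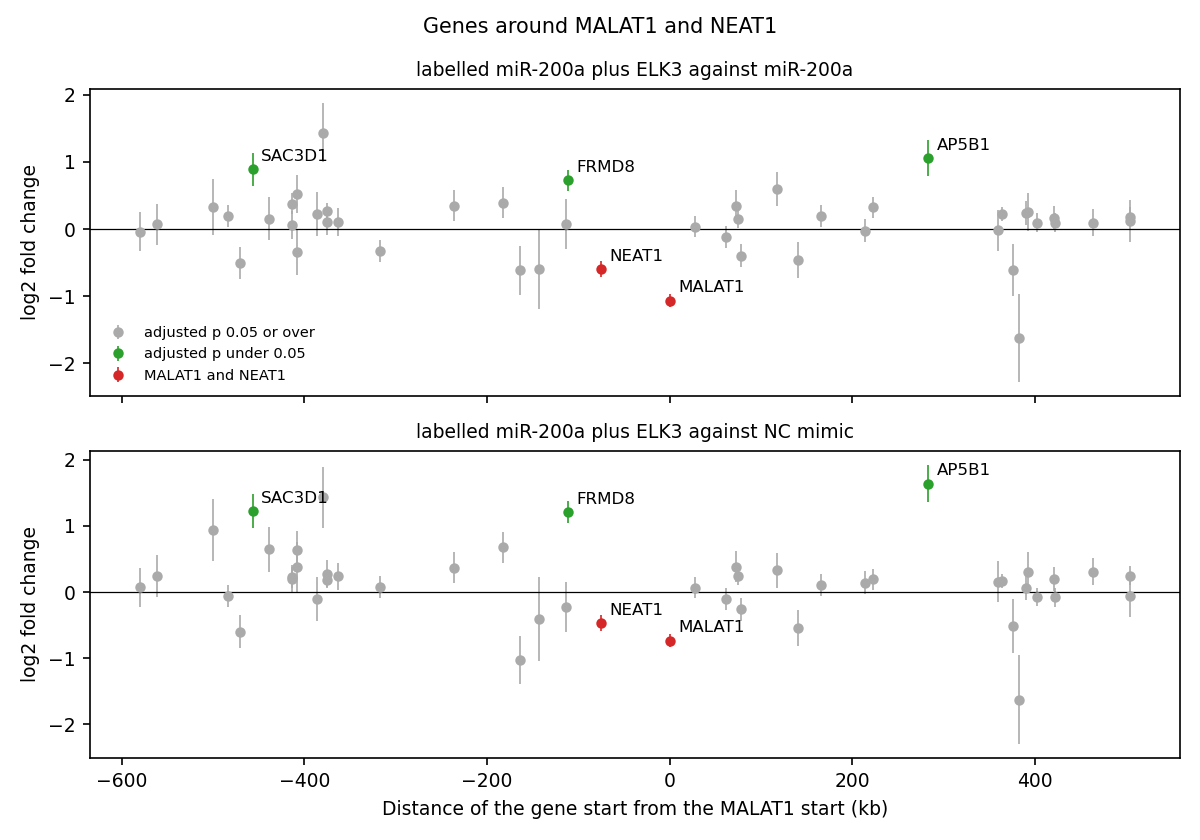
Log2 fold change (points) with its standard error (bars) of the tested genes around MALAT1 and NEAT1, by the distance of each gene's start from the MALAT1 start in kb. MALAT1 and NEAT1 (red) lie below 0 at -1.07 and -0.59 against miR-200a, while the 3 neighbours past the threshold (green) lie between 0.73 and 1.06. Against NC mimic the members lie at -0.73 and -0.47 and the same 3 neighbours between 1.21 and 1.64.

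The genes whose levels over the 6 libraries ran most like those of MALAT1 were MBP, PLAT, HEG1, LEPROT and ZBTB10, with Pearson r of log2 CPM from 0.995 to 0.999 among 5846 genes with a mean log2 CPM over 5. PLAT encodes tissue plasminogen activator. For NEAT1 they were SERINC3, YPEL5, RAC2, UGCG and SOD2, with r from 0.992 to 0.998, of which SOD2 is the mitochondrial superoxide dismutase. NEAT1 stood in place 23 for MALAT1, with r = 0.983 and the same order of all 6 libraries. These values describe 6 libraries that fall into 3 groups of the same cell line, and the highest of 5846 coefficients are high by selection.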

How the data were processed

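Total RNA of 6 MDA-MB-231 samples was sequenced by the authors as QuantSeq 3′ libraries. Per the labels, the submitters' processing notes name Bowtie2, edgeR and hg19; the counting program, annotation and strand setting are not given in the sources used here. The deposited values are raw counts of reads per gene, 25737 lines per file, unnormalized. Counts of 286 repeated symbols were summed here. No mitochondrially encoded gene was listed.

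The 12650 genes passing filterByExpr (minimum count 10) were fitted with edgeR 4.0.16 in R 4.3.3 (TMM, quasi-likelihood test, 3 groups in 1 fit, 3 residual degrees of freedom, Benjamini-Hochberg adjustment over all genes, threshold 0.05). DESeq2 1.42.0 and limma 3.58.1 were alternatives, beside other scalings, filters, a replicate block and leaving out each library. Scripts were tested on simulated data. MALAT1, NEAT1 and the gene lists were chosen with earlier results of these data known. Named list genes were the up to 4 called members of smallest p in each comparison, and the uncalled member of highest level as an example; NONO was added after its values were seen. Sequences came from GENCODE 29 transcripts on GRCh38 and from RefSeq.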

Additional observations from a re-analysis of the deposited data

How the results depend on the processing

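MALAT1 between miR-200a and NC mimic lay at a log2 difference of 0.34 with upper-quartile scaling, DESeq2 or at least 10 counts in every library, 0.35 with library totals, with both RNAs left out of the scaling or with the 2 groups alone, and 0.36 with no filter, against 0.33. Leaving out 1 library gave 0.33 to 0.35. Limma on quantile-normalized values gave 0 in all 3 comparisons, by construction. The NEAT1 call was lost with limma (-0.65, adjusted p = 0.0996, against miR-200a and -0.51, adjusted p = 0.138, against NC mimic) and with the 2 groups alone (-0.59 and -0.47); the cause was not tested. Leaving out 1 library gave NEAT1 -0.72 to -0.51 and -0.58 to -0.37.

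Genes called between miR-200a and NC mimic, between the libraries labelled ELK3 and miR-200a, and between those libraries and NC mimic numbered 34, 1637 and 1628. They were 4, 107 and 391 with limma, 230, 2490 and 2525 with no filter, 983, 542 and 587 with the 2 groups alone, and 88 with DESeq2 in the first comparison. Leaving out 1 library gave 0 to 1010, 31 to 4684 and 96 to 4675. The 0 came from edgeR without the second NC mimic library, where 570 genes had an unadjusted p under 0.05. A comparison left with 1 library in a group assumes that it varies like the others.

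The replicate numbers did not pair the samples, with correlations of same-numbered deviations of -0.003, -0.036 and -0.108. With the replicate block 13 genes were called between miR-200a and NC mimic, and NEAT1 against NC mimic was -0.47 (adjusted p = 0.0590). A crossed block, added after seeing the data, called 22, 1644 and 1661. The alternative without mitochondrial genes could not be run, since none was listed, and keeping the highest line of a symbol changes nothing for genes on 1 line.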
